A study of Homo sapiens with 2 samples.

Results

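The integrated stress response regulators described here are 10 genes, ATF4, DDIT3, TRIB3, CEBPB, CEBPG, CHAC1, SESN2, DDIT4, PPP1R15A and EIF2AK3, taken by symbol from a table of 13137 genes, and all 10 were found in it. They were chosen on the tag counts of the same 2 libraries that are compared below, so their values are a description and carry no test. A549 is a human lung adenocarcinoma cell line. One A549 population carried a doxycycline-inducible H1TetO hairpin against SOX2 (shRNA-SOX2) and the other a scrambled hairpin under the same promoter (shRNA-Con), each a puromycin-selected polyclonal population. Both were kept in doxycycline for 4 days, so the drug and a hairpin were common to the groups, and 1 library was made from each. In digital gene expression mRNA is counted as short tags. Each tag is taken here as 1 captured mRNA, which was not checked. The libraries held 2304184 gene tags for shRNA-Con and 2093816 for shRNA-SOX2.

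With 1 library per condition there was no replicate, so a difference between the libraries has no replicate check, and the 95% intervals given cover counting error only. The value columns carry the abbreviations SC and S1, which were read as shRNA-Con and shRNA-SOX2 although no label spells them out, and every direction given rests on that reading. SOX2 itself had 16 tags in shRNA-Con against 23 in the other library, a ratio of 1.58 (95% interval 0.80 to 3.20), so a lower SOX2 mRNA level was not seen at this depth and the term "library labelled shRNA-SOX2" is used throughout. Of 9 epithelial and A549 markers 8 had tags, of which Fisher's exact test called 4 higher and 2 lower. They ran from AKR1B10 with 6039 and 4581 tags (shRNA-Con first) and KRT18 with 10318 and 7887 to ALDH1A1 with 7035 and 14268 and KRT19 with 35 and 127, while EPCAM had 8 and 4. Of 9 markers of immune, stromal and endothelial cells 4 had tags, with 51 and 50 tags in all, mostly on COL1A1.

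The integrated stress response begins when a kinase phosphorylates the translation initiation factor eIF2. General translation then slows, while the mRNA of the transcription factor ATF4 is translated more. ATF4 binds DNA as a dimer with C/EBP family proteins at composite C/EBP-ATF elements and raises genes for amino acid supply, redox balance and, in prolonged stress, cell death. Part of its output feeds back on the pathway, through the phosphatase subunit PPP1R15A and the pseudokinase TRIB3. Tags measure mRNA, so neither eIF2 phosphorylation nor the ATF4 protein was measured.

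Relative to shRNA-Con, 9 of 10 members had a lower level under the shRNA-SOX2 label, in counts per 1000000 gene tags (CPM), and SESN2 had a higher one. A lower level in all cells and a loss from part of the cells cannot be told apart in bulk RNA. TRIB3 was furthest apart, at 18.1-fold, followed by CEBPG at 5.09-fold and DDIT3 at 4.20-fold, while ATF4 itself was 1.37-fold lower. Of the 10 members, each of which had a sum of 20 tags or more, 7 had a log2 ratio of -1 or below, against 13.0% of all 10045 genes with that many tags. The rule that chose the members used this contrast, so nothing is read from the 7. The median log2 ratio of the members was -1.35, and that of the 10045 genes was -0.10. Together the members held 6962 tags in shRNA-Con against 1608 in the library labelled shRNA-SOX2, and TRIB3 made up 50.9% of the first and 11.1% of the second. Their summed CPM was 3.93-fold lower under the shRNA-SOX2 label, and 2.17-fold lower without TRIB3.

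**Figure D1:**
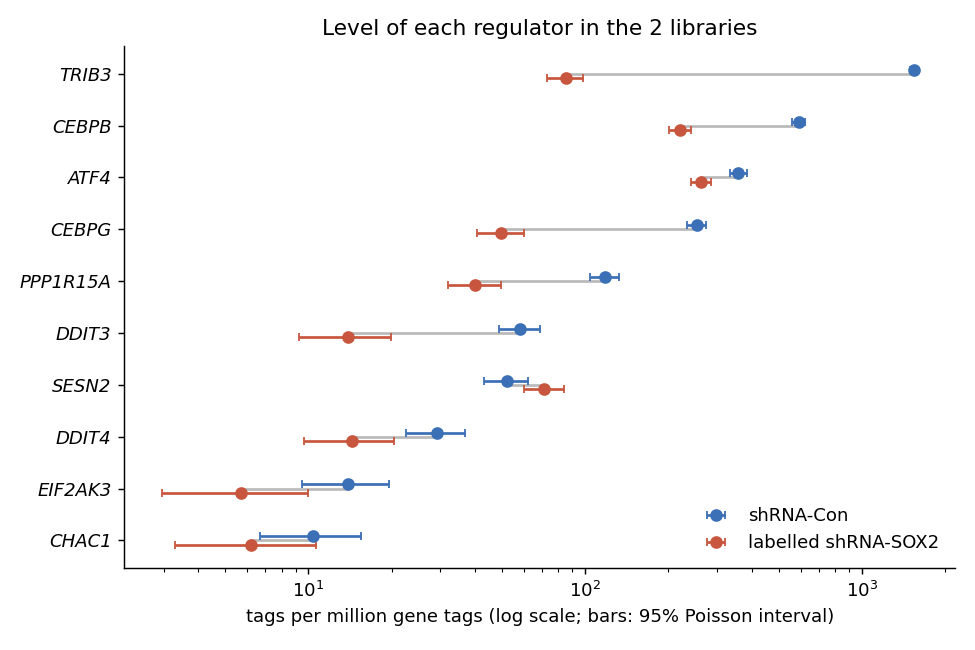
Level of each regulator in tags per 1000000 gene tags (CPM; x axis, log scale), with 1 point per library (blue, shRNA-Con; red, labelled shRNA-SOX2) and bars for the 95% Poisson interval of the count. SESN2 is the gene whose red point lies to the right of the blue, and the widest gap is that of TRIB3.

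Promoter stretches of 5 members that hold a binding motif of the pathway are shown first, since ATF4 and C/EBP proteins act through such sites. RefSeq windows (GRCh38.p14), from 250 bases before to 50 after an annotated start, were matched for 10 of 10 members and searched on both strands. The composite element was written as TGATGNAA and the C/EBP site as TTGCNNAA, and capitals mark the match.
CEBPG, composite element, chr19:33374061-33374088, plus strand: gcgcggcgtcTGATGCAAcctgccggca
CHAC1, composite element on the opposite strand, chr15:40953252-40953279, plus strand: tcccctgccgTTGCATCActcctgccag
EIF2AK3, C/EBP site, chr2:88627472-88627499, minus strand: cgcggaaagtTTGCTCAAtgggcgatgt
PPP1R15A, C/EBP site, chr19:48872264-48872291, plus strand: cgccgtgacgTTGCAAAAgctggaatct
SESN2, C/EBP site, chr1:28259287-28259314, plus strand: ctaaaccgtcTTGCAAAAgtttgcagca

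The composite element of CEBPG begins 42 bases upstream of the second of its annotated starts, and that of CHAC1 209 bases upstream of its start. Both read TGATGCAA. All 250 bases before the CHAC1 start lie in annotated untranslated regions (GENCODE), so this site is in sequence annotated as transcribed. Such regions cover 33 of the 250 bases before that start of CEBPG, 112 for EIF2AK3, 29 for PPP1R15A and 0 for SESN2. A match to TGATGNAA was present for 2 of 10 members and for 4.46% of the 27305 genes with a window. The C/EBP site was present for 3 of 10 members, against 12.7% of all genes, and PPP1R15A had a second match within the 50 bases after its start. SESN2 and PPP1R15A carry the same 8 bases, TTGCAAAA, and their ratios lay on opposite sides of 0 (0.45 and -1.55 on the log2 scale). The endoplasmic reticulum stress element, written as CCAAT followed after 9 bases by CCACG, was found for 0 of 10 members and 0.0916% of all genes. A SOX core, CATTGT, was found in the window of PPP1R15A and in those of 13.0% of all genes. The windows of ATF4, DDIT3, TRIB3, CEBPB and DDIT4 held no match to the 4 motifs, which says only that these letters are not in these windows.

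EIF2AK3 (Entrez Gene ID 9451; chromosome 2 of GRCh38, 88556741 to 88628145) encodes PERK, the kinase of the endoplasmic reticulum membrane that phosphorylates eIF2 when unfolded proteins accumulate. It had 32 tags in shRNA-Con against 12 in the library labelled shRNA-SOX2, and its log2 ratio was -1.28 (95% interval -2.37 to -0.28). At 5.73 CPM it came last of the members under the shRNA-SOX2 label, with an interval that overlapped that of CHAC1 (6.21 CPM). Its gene overlaps the noncoding EIF2AK3-AS1 and EIF2AK3-DT, and whether tags were assigned by strand is not given in the sources used here.

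ATF4 (468; chromosome 22, 39520559 to 39522686), the transcription factor at the centre of the response, had 824 tags in shRNA-Con against 548 in the library labelled shRNA-SOX2. Its level was 358 CPM (95% Poisson interval 334 to 383) in shRNA-Con and 262 (240 to 285) in the other library. These intervals did not overlap, and the log2 ratio was -0.45 (-0.61 to -0.29). Of the 9 members with fewer tags it was the one closest to the median of all genes, and 32.5% of the 10045 genes had a lower ratio. RefSeq lists 4 ATF4 pseudogenes, and how tags shared with them were counted is not given.

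The 3 other basic leucine zipper proteins among the members, CEBPB, CEBPG and DDIT3, had lower ratios than ATF4, with intervals that did not overlap its own. CEBPB (1051; chromosome 20, 50190583 to 50192690), a C/EBP factor that forms dimers with ATF4, had 1363 tags in shRNA-Con against 461 in the library labelled shRNA-SOX2. Its log2 ratio of -1.43 had the narrowest interval of the members below -1, from -1.58 to -1.27. It shares 1487 bases with the antisense gene CEBPB-AS1, from whose tags its own may not have been told apart. CEBPG (1054; chromosome 19, 33373709 to 33382686), a short family member that pairs with ATF4 at composite elements, had 582 and 104 tags. Its log2 ratio was -2.35 (-2.66 to -2.04), and 1.04% of the 10045 genes had a lower one.

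DDIT3 (1649; chromosome 12, 57516588 to 57520517) encodes CHOP, a C/EBP relative induced by ATF4 that is known for its role in death under prolonged stress. It had 134 tags in shRNA-Con against 29 in the library labelled shRNA-SOX2, and its log2 ratio was -2.07 (-2.70 to -1.48). In RefSeq it shares 2769 bases with LOC128125814, 97 with MIR616 and 65 with the neighbouring MARS1. MARS1 (MARS in the table), which encodes the methionyl-tRNA synthetase, had 785 and 255 tags, and whether any tags of these genes were counted for DDIT3 was not tested.

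Among the feedback genes, TRIB3 (57761; chromosome 20, 380760 to 397559) encodes a pseudokinase that is induced by ATF4 and DDIT3 and binds ATF4 and the kinase AKT. It had 3545 tags in shRNA-Con against 178 in the library labelled shRNA-SOX2. In shRNA-Con TRIB3 ranked 71 by tags among all genes, and in the other library 2110. Its level went from 1539 CPM (1488 to 1590) to 85.0 (73.0 to 98.5), a log2 ratio of -4.18 (-4.40 to -3.96). With counts below 3 set to 3, 0 of the 10045 genes had a lower ratio. With 0.5 added to each count instead, 8 genes had one, and all 8 had 0 tags in the library labelled shRNA-SOX2.

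PPP1R15A (23645; chromosome 19, 48872421 to 48876058) encodes GADD34, which directs protein phosphatase 1 to eIF2 and so ends the response. It had 271 tags in shRNA-Con against 84 in the library labelled shRNA-SOX2, and its log2 ratio was -1.55 (-1.92 to -1.19). CHAC1 (79094; chromosome 15, 40953471 to 40956512), an ATF4 target that degrades glutathione, had 24 and 13 tags. Its log2 ratio was -0.75 with an interval from -1.84 to 0.28, so that a difference was not detectable at this depth.

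DDIT4 and SESN2 encode inhibitors of the growth kinase mTORC1, and their ratios had opposite signs. DDIT4 (54541; chromosome 10, 72273924 to 72276036), also called REDD1, had 67 tags in shRNA-Con against 30 in the library labelled shRNA-SOX2, and its log2 ratio was -1.02 (-1.69 to -0.38). With TMM factors, a scaling that balances the bulk of genes, its ratio was -0.95, which left 6 of 10 members at -1 or below. SESN2 (83667; chromosome 1, 28259518 to 28282491), a leucine sensor that is also a target of p53, had 120 and 149 tags. Its log2 ratio was 0.45 (0.09 to 0.81) with gene tags. Scaled to clean tags, the total on which the authors' TPM rests, it was 0.34, and an interval was not computed for that scaling. The Poisson intervals of its levels overlapped, at 52.1 CPM (43.2 to 62.3) in shRNA-Con and 71.2 (60.2 to 83.5) in the other library.

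**Figure D2:**
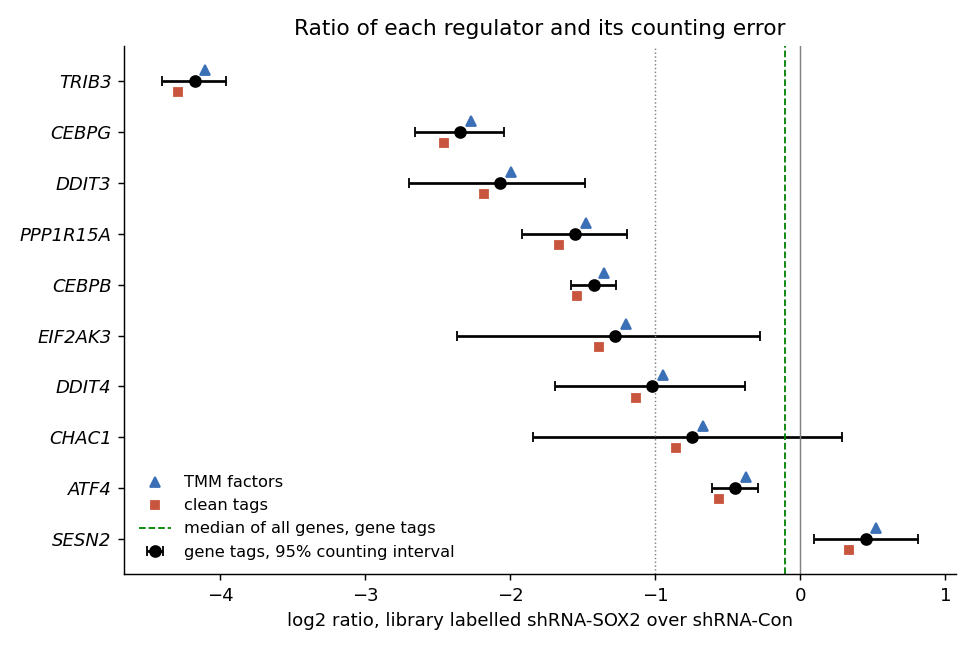
Log2 ratio of each regulator, library labelled shRNA-SOX2 over shRNA-Con (x axis), with black points and bars for gene tags and their 95% counting interval, blue triangles for TMM factors and red squares for clean tags. The dashed line is the median of all genes with at least 20 tags (-0.10) and the dotted line a log2 ratio of -1, and the interval of CHAC1 alone crosses 0.

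Ordered by ratio, the counting intervals of TRIB3 and the next member, CEBPG, did not overlap, nor did those of ATF4 and SESN2. The members were chosen on these ratios, so this describes counting error and is no test. For the other 7 neighbouring pairs in this order the intervals overlapped, so their order lies within counting error. A tag count does not grow with the length of the mRNA, so levels in CPM were also ordered between genes. How fully an mRNA yields counted tags may differ between genes, and the intervals do not cover this. In shRNA-Con the order was TRIB3, CEBPB, ATF4, CEBPG, PPP1R15A, DDIT3, SESN2, DDIT4, EIF2AK3 and CHAC1, and the pairs DDIT3 with SESN2 and EIF2AK3 with CHAC1 had overlapping intervals. In the library labelled shRNA-SOX2 ATF4 came first, at 262 CPM, with CEBPB at 220 and TRIB3 at 85.0. There the intervals of ATF4 and CEBPB overlapped, and so did those of TRIB3 and SESN2.

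**Figure D3:**
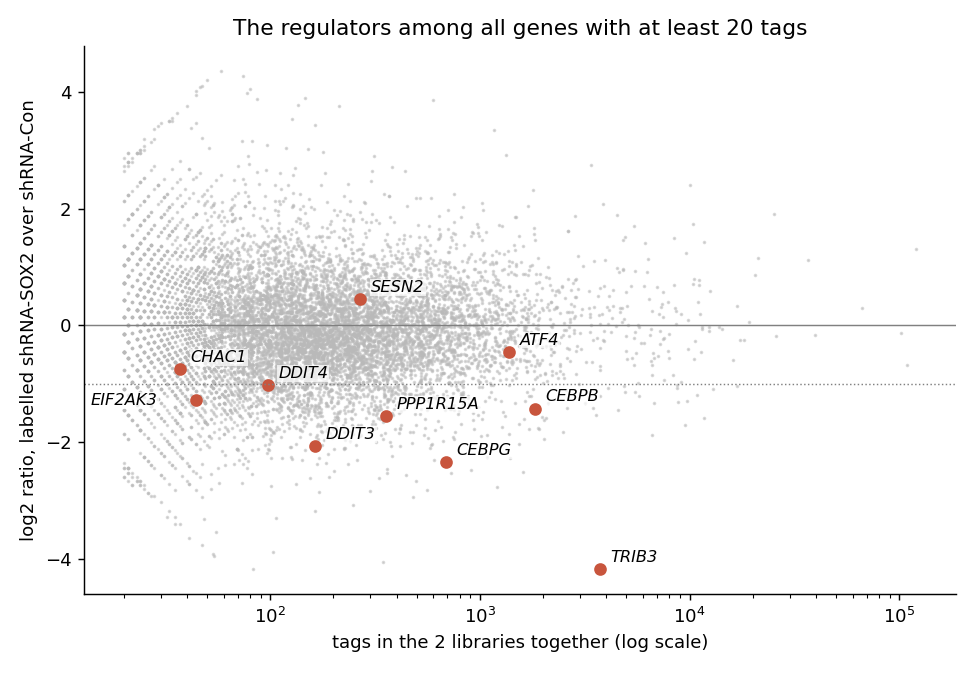
Log2 ratio, library labelled shRNA-SOX2 over shRNA-Con (y axis), against the tags in both libraries together (x axis, log scale) for the 10045 genes with at least 20 tags (grey), with the 10 regulators in red. TRIB3, with 3723 tags, has the lowest ratio (genes with a count below 3 are drawn at a bound), and ATF4 and SESN2 lie within the bulk.

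The other genes of the pathway were compared one by one between the libraries with a two-sided Fisher's exact test and Benjamini-Hochberg adjustment over all 13137 genes, at an adjusted p of 0.001. The test compares these libraries, not the conditions. Like the members, the lists were chosen with earlier results of these data known. Their counts of calls and medians therefore describe the lists and are not independent evidence. Of all genes, 12.2% were called lower under the shRNA-SOX2 label and 9.53% higher. Of these 13137 genes 10045 had at least 20 tags, as did nearly all genes of the lists. The test calls genes with many tags more readily, so these shares and the counts of the lists are not at like depth. Lower calls were 56.1% of the 2849 calls made with gene tags, 49.4% under TMM factors and 66.6% under clean tags, the total on which the authors' TPM rests. The median of all genes was -0.10 for gene tags, -0.03 under TMM factors and -0.22 under clean tags.

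Of 22 genes for the other eIF2 kinases, the subunits of eIF2 and of its exchange factor eIF2B, and their regulators, 4 were called lower and 2 higher, with a median log2 ratio of -0.32. EIF2S2, the beta subunit of eIF2, had 971 tags in shRNA-Con against 317 in the library labelled shRNA-SOX2 (log2 ratio -1.48, adjusted p = 1.31e-62, Fisher's exact test). EIF2S1, the alpha subunit that the kinases phosphorylate, had 565 and 254 tags (-1.02, adjusted p = 1.53e-20, Fisher's exact test). Higher were PPP1CC, a catalytic subunit of protein phosphatase 1, with 306 and 535 tags, and EIF2AK4 (GCN2), the kinase that senses amino acid shortage, with 50 and 103. The log2 ratio of EIF2AK4 was 1.18, against -1.28 for EIF2AK3. The other eIF2 kinases were not called, EIF2AK1 (HRI) with 806 and 764 tags and EIF2AK2 (PKR) with 36 and 31.

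Family relatives of the members had a median log2 ratio of -0.27, and of 20 listed genes 17 had tags, 2 of them called lower and 2 higher. TRIB1 had 99 and 63 tags, a log2 ratio of -0.51 against -4.18 for TRIB3. The C/EBP relative CEBPD had 272 tags in shRNA-Con against 236 in the other library. CEBPZ, listed by its name although it is not a basic leucine zipper protein, had 198 and 187. PPP1R15B, the constitutive counterpart of PPP1R15A, had 171 and 120 tags. None of these 4 was called. SESN1, like SESN2 a sestrin and a p53 target, was called higher, with 23 and 82 tags (log2 ratio 1.97, adjusted p = 2.46e-09, Fisher's exact test). The lower calls were ATF2, with 30 and 6 tags, and ATF1, with 118 and 59. With TMM factors their adjusted p-values in Fisher's exact test were 0.00141 and 0.00216, so that 0 relatives were called lower, with 4 at an unadjusted p under 0.05.

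Among 24 measured signalling and death genes known to lie downstream of ATF4 or DDIT3, 11 were called lower and 2 higher, with a median log2 ratio of -0.70. XPOT, which exports tRNA from the nucleus, had 1070 tags in shRNA-Con against 143 in the library labelled shRNA-SOX2 (log2 ratio -2.77, adjusted p = 4.78e-155, Fisher's exact test). VLDLR, a lipoprotein receptor, had 40 and 7 tags (-2.38). EIF4EBP1, a repressor of cap-dependent translation, had 479 and 105 tags, and VEGFA, an angiogenic growth factor, had 309 and 67. The higher calls were BBC3 (PUMA), a pro-apoptotic protein, with 221 and 482 tags (log2 ratio 1.26), and TNFRSF10B (DR5), a death receptor, with 1085 and 1226 (0.31). The pro-apoptotic genes PMAIP1, with 162 and 129 tags, and BCL2L11, with 47 and 17, were not called. ATF3, with 71 and 53 tags, and ATF5, with 26 and 26, were not called either. BBC3 and TNFRSF10B are also p53 targets. So are PMAIP1 and, both called lower, GADD45A with 282 and 166 tags and GDF15 with 2402 and 1343. A role of p53 was not tested. With clean tags 1 gene of the list was called higher.

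Of 28 genes for amino acid synthesis, transport and tRNA charging downstream of ATF4, 22 were called lower and 0 higher by Fisher's exact test, none being higher at an unadjusted p under 0.05 either. Their median log2 ratio was -1.24, beside -1.35 for the 10 members. The 6 genes not called included PSPH, with 109 and 81 tags (shRNA-Con first), and SHMT2, with 213 and 199. PHGDH, the first enzyme of serine synthesis, had 266 tags in shRNA-Con against 34 in the library labelled shRNA-SOX2 (log2 ratio -2.83, adjusted p = 2.02e-39, Fisher's exact test). MTHFD2, a mitochondrial folate enzyme, had 778 and 127 tags (-2.48, adjusted p = 1.06e-99, Fisher's exact test).

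The ATF6 and IRE1 arms of the unfolded protein response run beside the PERK arm. Of 20 measured genes of these arms 18 were called lower and 0 higher, with a median log2 ratio of -1.11, and 0 were higher at an unadjusted p under 0.05. SEL1L, of the degradation complex of the endoplasmic reticulum, had 387 and 87 tags (log2 ratio -2.02), and CRELD2, a secreted stress marker, had 212 and 52 (-1.89). HSPA5, the chaperone BiP, had 7458 and 2082 tags. The lists overlap, since DNAJC3, HERPUD1, PPP1R15B and EIF2AK4, among others, sit in more than one.

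**Figure D4:**
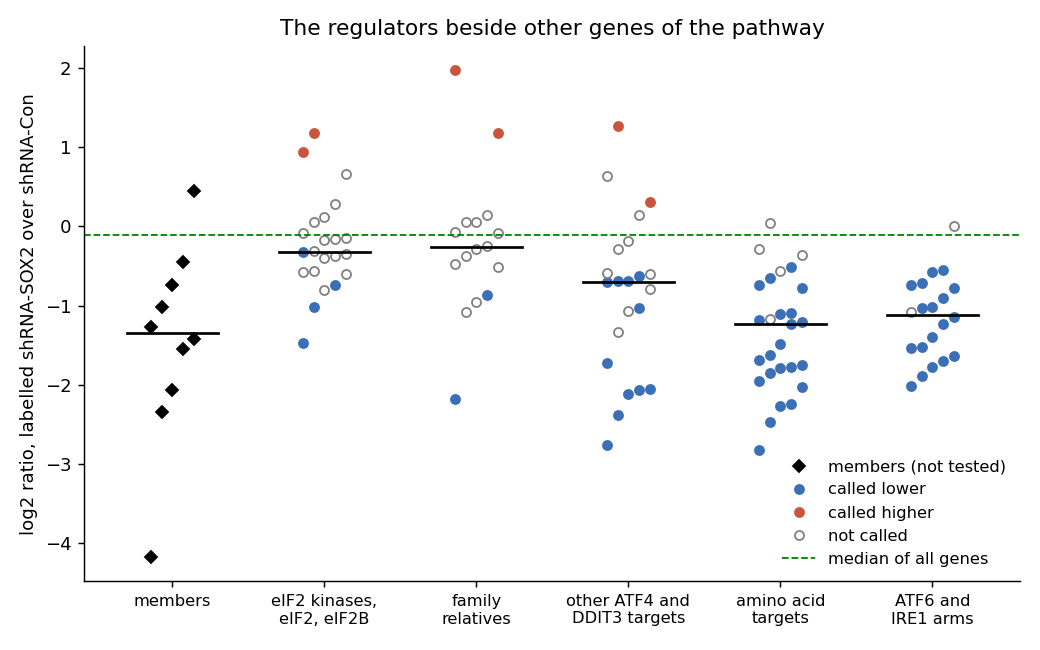
Log2 ratio, library labelled shRNA-SOX2 over shRNA-Con (y axis), of the 10 members and of the genes of the other 5 lists that had 20 tags or more (x axis), with blue and red for genes called lower and higher by Fisher's exact test, open circles for genes not called and black bars for medians. The medians are -1.35, -0.32, -0.27, -0.70, -1.24 and -1.11 from left to right, and the dashed line is the median of all genes.

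These calls take the spread between cultures as 0. Where edgeR's exact test was given a biological coefficient of variation of 0.2, a guess and not a measurement, the amino acid list had 5 lower calls (PHGDH, MTHFD2, PYCR1, AARS and IARS), the signalling list 2 (XPOT and EIF4EBP1) and the other lists 0. Over all genes this setting called 48 lower and 65 higher, or 0.365% and 0.495% of 13137, so that 42.5% of its calls were lower.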

How the data were processed

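mRNA of 2 A549 libraries, 1 per condition, was profiled from 4 µg of total RNA as digital gene expression tags. The authors deposited tag counts per Entrez Gene ID without normalization, and TPM values, which they scaled to all clean tags and in which a count of 0 appears as 0.01. The submitters' processing notes name the build hg19, and an aligner is not given in the sources used here. The deposited fold changes, p-values and FDR of the authors' own comparison were not used, nor were the table's coordinates, which carry no chromosome.

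Log2 ratios (shRNA-SOX2 over shRNA-Con) used counts divided by the total of gene tags, with counts below 3 set to 3. Intervals are 95% Clopper-Pearson intervals for ratios and exact Poisson intervals for levels. Genes outside the members were tested by Fisher's exact test, with p-values adjusted after Benjamini-Hochberg. This test, the log2 ratios and their intervals were checked on simulated counts, and the other steps were not. The simulated counts held counting error only, so the check does not cover a spread between cultures. The members and lists were chosen with earlier results of these data known. In each other list, the 2 lowest and 2 highest called genes were named by rule, and further ones after their values were seen. Alternatives were TMM factors, the median ratio, clean tags (3516266 for shRNA-Con and 3456233 for shRNA-SOX2, from the TPM), 0.5 added to each count, other minimums of tags, and edgeR's exact test at a biological coefficient of variation set to 0.2. Gene positions and promoter windows are those of RefSeq, GRCh38.p14. Python 3.11.15, scipy 1.17.1, R 4.3.3, edgeR 4.0.16 and DESeq2 1.42.0 were used.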

Additional observations from a re-analysis of the deposited data

How the results depend on the processing

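No paired analysis was possible because there was 1 library per condition, which also left no library to omit. The direction of every member's ratio was the same under TMM factors, the median ratio, clean tags and 0.5 added to each count. The median of the members was -1.35 with gene tags, -1.46 with clean tags and -1.55 over the 7 members with at least 100 tags. Members at a log2 ratio of -1 or below numbered 7 of 10, 6 of 10 with TMM factors or the median ratio, 7 of 10 with clean tags, and 5 of the 7 members that had 100 tags or more. With clean tags 1 signalling gene was called higher in place of 2, and with TMM factors 0 relatives were called lower in place of 2.

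Under edgeR's exact test with the biological coefficient of variation set to 0.2, lower calls were 0 of 22 eIF2 genes (2 at an unadjusted p under 0.05), 0 relatives (2), 2 signalling genes (9), 5 amino acid genes (18) and 0 genes of the ATF6 and IRE1 arms (13). Higher calls were 0 for the eIF2 genes (2), the relatives (3) and the signalling genes (1). This setting adds a spread that Fisher's exact test takes as 0, and no replicate shows which value applies. Over all genes it made 113 calls, against 2849. Of the alternatives to these counts and medians, 12 moved a value by over 1.5 times (by over 0.1 for a median on the log2 scale), all given above, and 38 did not.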

Other observations

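The promoter windows of the other lists were searched for the same motifs as those of the members. The composite element TGATGNAA was found for 10 of 22 matched amino acid genes (AARS1, ASNS, GARS1, IARS1, MARS1, NARS1, SLC1A4, SLC1A5, SLC3A2 and SLC7A1), against 4.46% of all genes with a window. It was found for 5 of 19 signalling and death genes (ATF3, DDR2, FGF21, HERPUD1 and JDP2). DDR2 and FGF21 were not among the 13137 genes compared between the libraries. The element was also found for 2 of 16 relatives, 1 of 19 eIF2 genes and 1 of 20 genes of the ATF6 and IRE1 arms. The endoplasmic reticulum stress element was found for 7 of these 20 genes (CALR, CANX, CRELD2, HSP90B1, HSPA5, PDIA6 and XBP1), against 0.0916% of all genes. HSP90B1, 1 of the 7, had 2962 and 2699 tags and was not called. PHGDH and MTHFD2, the amino acid genes with the lowest ratios, were not among the 10. These shares describe the lists and were not tested.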
